A study of Mus musculus with 12 samples.

Results

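A set of 10 genes around ERK and the other MAP kinases was examined, namely the MNK kinases Mknk1 and Mknk2, the MAP kinase phosphatases Dusp4, Dusp6, Dusp7, Dusp10 and Dusp16, and the Sprouty and SPRED proteins Spry2, Spry4 and Spred1. They were found by gene symbol, and all 10 were among the 17432 genes of the liver table. Mknk2 was picked for its strong rise in these same livers, so its values are given as a description without a test. The comparison asked how these transcripts in the liver differed after a postprandial exercise bout.

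The study sequenced liver mRNA of wild-type C57BL/6J male mice aged 8 to 10 weeks, with 6 libraries in the Sedentary group and 6 in the Exercise group. All mice had been kept on daytime feeding and had been accustomed to the treadmill for 5 min at 10 m/min on 3 days. On the test day all were refed in the morning and the food was then taken away, after which the Exercise mice ran at 14 m/min for 3 h while the Sedentary mice rested. Livers of both groups were taken at the end of the bout, so the groups shared the genotype, the feeding schedule and the time of collection, and each result is a single time point.

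ERK is the last kinase of a relay that runs from growth factor receptors through RAS, RAF and MEK. Active ERK switches on transcripts whose products damp the relay, among them dual-specificity phosphatases, which strip phosphate from MAP kinases, and Sprouty and SPRED proteins, which act upstream near RAS and RAF. The MNK kinases stand on the other side: ERK and p38 activate them, and they phosphorylate the cap-binding translation factor eIF4E. The phosphatases differ in target, since Dusp6 and Dusp7 act mainly on ERK in the cytoplasm, Dusp4 is an inducible nuclear enzyme, and Dusp10 and Dusp16 act mainly on JNK and p38.

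Library totals ran from 18745379 to 19324461 estimated counts. The hepatocyte marker Alb lay between 89862 and 127248 CPM (counts scaled to a common library total with TMM factors) in the 12 livers, and was the only 1 of 7 hepatocyte markers called, rising by 0.24 on the log2 scale (adjusted p = 0.0253). One library stood apart from its group in transcripts of another tissue: Myh6, a cardiac myosin, was at 5.80 CPM in Exercise replicate 1 and at 0 in the other Exercise livers, against 4.29 to 10.6 CPM in the Sedentary livers. Tnnt2, another striated muscle marker, set Exercise replicate 1 apart less, at 1.48 CPM against up to 1.07 CPM in the other Exercise livers. Counts of members and calls lost without that liver are given below. In these bulk samples, fewer cells of a type and less RNA per cell cannot be told apart.

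Promoter sequence was available for 8 of the 10 genes, not for Dusp4 and Spry4. Shown are the 250 bases before the start site of the MNK pair, because the paralogs differed in size of change, and of Dusp16, the phosphatase with the smallest adjusted p, as RefSeq gives them on GRCm38.p6. The windows lie at chr10:80676294-80676543 on the minus strand (Mknk2), chr4:115838948-115839197 on the plus strand (Mknk1, the more upstream of 2 overlapping windows) and chr6:134792629-134792878 on the minus strand (Dusp16), and GENCODE places no exon in these 3 windows. Those of Mknk1 and Dusp16 precede start sites inside the gene as RefSeq bounds it. Capitals mark a motif match.
Mknk2: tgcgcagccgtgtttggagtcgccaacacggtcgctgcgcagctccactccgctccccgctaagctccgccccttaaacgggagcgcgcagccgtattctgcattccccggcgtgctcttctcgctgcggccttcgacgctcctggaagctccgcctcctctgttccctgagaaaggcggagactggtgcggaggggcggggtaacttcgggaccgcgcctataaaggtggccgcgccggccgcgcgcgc
Mknk1: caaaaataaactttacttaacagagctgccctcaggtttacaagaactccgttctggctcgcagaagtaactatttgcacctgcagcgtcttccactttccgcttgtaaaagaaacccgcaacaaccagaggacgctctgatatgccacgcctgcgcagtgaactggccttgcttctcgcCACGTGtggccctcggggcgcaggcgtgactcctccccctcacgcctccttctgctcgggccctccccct
Dusp16: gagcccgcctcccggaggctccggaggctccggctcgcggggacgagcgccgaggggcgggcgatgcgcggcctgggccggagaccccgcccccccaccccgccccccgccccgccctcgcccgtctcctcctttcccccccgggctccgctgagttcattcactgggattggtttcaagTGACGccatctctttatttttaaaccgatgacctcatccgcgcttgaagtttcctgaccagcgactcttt

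A set of 8 short motifs were searched on both strands of these bases. Mknk1 held the E-box CACGTG, 70 bases before the start site, a motif found in 6.02% of the 32851 promoters of the table. Dusp16 held the short CRE core TGACG, also 70 bases before its start site, which 17.8% of promoters hold. The full CRE TGACGTCA, of which the short core is a part, the FOXO core GTAAACA, AP-1 (TGANTCA), the ETS core CCGGAAG, the GRE core TGTTCT and STAT (TTCNNNGAA) matched none of the 8 genes. No motif of the 8 was shared by any of these genes, and no motif lay in the printed bases of Mknk2.

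Mknk2 was by far the most abundant of the 10 transcripts and had the largest difference. This kinase (gene ID 17347), on chromosome 10 at 80665318 to 80676293 of GRCm38.p6 as RefSeq gives it, lay between 93.2 and 115.6 CPM in the Sedentary livers, with a median of 102.0 CPM, and between 213.1 and 246.2 CPM in the Exercise livers, with a median of 236.2 CPM. Every Exercise liver stood above every Sedentary liver, and the spread within a group was narrow, with a CV of 8.15% in Sedentary and 5.11% in Exercise. The mean rose from 101.9 ± 8.31 to 232.7 ± 11.9 CPM (SD, n = 6), and the log2 fold change was 1.19 (SE 0.06). Of the 12344 genes that passed the low count filter, 190 (1.54%) had a larger rise. These values chose the gene and carry no test.

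Its paralog Mknk1 (gene ID 17346), on chromosome 4 at 115837943 to 115879256, moved far less. Mknk1 lay between 15.0 and 17.0 CPM in Sedentary livers, with a median of 16.1 CPM, and between 17.7 and 19.7 CPM in Exercise livers, with a median of 18.2 CPM. The groups did not overlap, as was true of 22.3% of all genes tested. Exercise increased Mknk1 by 0.18 on the log2 scale (SE 0.06, edgeR adjusted p = 0.0147, exact permutation p = 0.00216, the smallest p that 6 against 6 can give). This small rise depended on the scaling and on the measure. It was 0.09 (edgeR adjusted p = 0.288) with library size alone. On log2(FPKM + 0.1), which also divides by transcript length, it was 0.05 (limma adjusted p = 0.529).

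Because FPKM (fragments per kilobase of transcript, scaled for depth) divides by length, it allows levels of different genes to be set side by side. Per length, Mknk2 stood 4.56 to 5.77 times above Mknk1 in the Sedentary livers and 9.33 to 10.9 times above it in the Exercise livers. The ratio was 5.05 ± 0.541 at rest and 10.4 ± 0.563 after the bout (SD, n = 6), without overlap, a description since Mknk2 was chosen on this contrast. The MNK pool, already mostly Mknk2 transcript in resting liver, was more so after running.

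**Figure D1:**
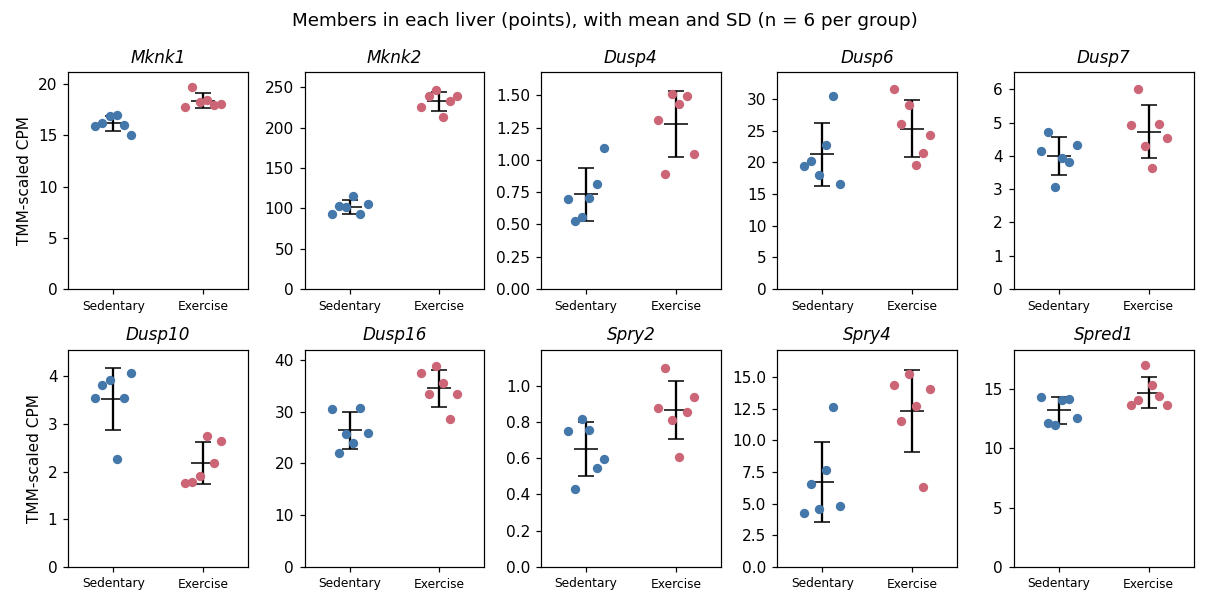
CPM of each of the 10 genes (vertical axes from 0, a scale per gene) in the 6 Sedentary and 6 Exercise livers, with black marks for the mean and SD. Mknk2 and Mknk1 show no overlap between groups, Dusp10 is the only gene with a lower Exercise mean, and 1 Sedentary and 1 Exercise liver cross over in Spry4.

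Of the 9 genes besides Mknk2, 5 passed an edgeR adjusted p of 0.05, where 42.4% of all genes tested did. Mknk1, Dusp4, Dusp16 and Spry4 were the 4 that rose (21.1% of all genes did), and Dusp10 was the 1 that fell (21.3% of all genes did). The median log2 fold change of the 9 was 0.25, and that of all genes tested was -0.0028. With so many of all genes past the threshold, the counts are read as near this background and as nothing particular to the 9. Over all genes, 2603 rose and 2626 fell, but 1767 rose and 3735 fell with library size alone. Without Exercise replicate 1, 4 of the 9 genes passed, Spry4 being the one lost. All 10 genes passed the low count filter, although Spry2 reached 10 counts in only 5 of 6 Sedentary livers.

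Among the phosphatases, the JNK and p38 phosphatases Dusp16 and Dusp10 moved in opposite directions. Dusp16 (gene ID 70686), on chromosome 6 at 134715468 to 134807063, lay between 21.9 and 30.7 CPM in Sedentary livers, with a median of 25.7 CPM, and between 28.6 and 38.8 CPM in Exercise livers, with a median of 34.5 CPM. In 5 of 6 Exercise livers it exceeded every Sedentary liver. Exercise increased it by 0.39 on the log2 scale (SE 0.09, adjusted p = 0.00165, exact permutation p = 0.00649).

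Dusp10 (gene ID 63953), on chromosome 1 at 184034381 to 184075636, lay between 2.27 and 4.07 CPM in Sedentary livers, with a median of 3.68 CPM, and between 1.75 and 2.76 CPM in Exercise livers, with a median of 2.05 CPM. The groups overlapped through a single low resting liver, Sedentary replicate 4, whose 2.27 CPM lay inside the Exercise range while the other 5 lay at 3.53 CPM or more. Exercise decreased Dusp10, with a log2 fold change of -0.70 (SE 0.16, adjusted p = 0.0019, exact permutation p = 0.00649). Without Sedentary replicate 4 the change was -0.80. A gene on the opposite strand overlaps Dusp10, at a mean of 0.383 CPM. The strand setting of the counting is not given in the sources used here, so reads of the pair cannot be told apart. Opposite-strand transcripts also overlap Mknk1, Dusp16 and Spry4. Those were not counted as genes of their own, and the same limit holds for these members.

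Dusp4 (gene ID 319520), the nuclear phosphatase, on chromosome 8 at 34807610 to 34819894, was scarce, with 11 to 22 counts per Sedentary and 17 to 28 per Exercise library. It lay between 0.525 and 1.09 CPM in Sedentary livers, with a median of 0.703 CPM, and between 0.888 and 1.51 CPM in Exercise livers, with a median of 1.37 CPM. The 4 highest Exercise livers stood above all Sedentary livers. Exercise increased Dusp4 by 0.80 on the log2 scale (SE 0.22, adjusted p = 0.00622, exact permutation p = 0.00649), and the adjusted p stayed under 0.05 in all 12 fits that left out a liver.

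The ERK phosphatases Dusp6 and Dusp7 did not pass the test. Dusp6 (gene ID 67603), the classical readout of ERK activity, on chromosome 10 at 99263231 to 99267489, lay between 16.6 and 30.5 CPM in Sedentary livers, with a median of 19.9 CPM, and between 19.6 and 31.6 CPM in Exercise livers, with a median of 25.2 CPM. Only 1 Exercise liver exceeded the highest resting liver, which was Sedentary replicate 5. Its log2 fold change was 0.25 (SE 0.15, adjusted p = 0.202, exact permutation p = 0.141), and it became 0.39 (adjusted p = 0.0175) when Sedentary replicate 5 was left out.

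Dusp7 (gene ID 235584), on chromosome 9 at 106368560 to 106375724, lay between 3.06 and 4.72 CPM in Sedentary livers, with a median of 4.04 CPM, and between 3.64 and 6.01 CPM in Exercise livers, with a median of 4.73 CPM. The ranges overlapped, with 3 of 6 Exercise livers above every Sedentary liver, and Dusp7 had a log2 fold change of 0.24 (SE 0.13, adjusted p = 0.144, exact permutation p = 0.104).

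Spry4 (gene ID 24066), a brake near RAS, gave the widest spread among resting livers of all 10 genes, with a CV of 47.2%. It lay between 4.25 and 12.6 CPM in Sedentary livers, with a median of 5.65 CPM, and between 6.29 and 15.2 CPM in Exercise livers, with a median of 13.4 CPM. In 4 Exercise livers it exceeded every Sedentary liver, but Sedentary replicate 5, at 12.6 CPM, sat among the Exercise livers and Exercise replicate 5, at 6.29 CPM, sat among the Sedentary ones. Exercise increased Spry4 by 0.88 on the log2 scale (SE 0.29, adjusted p = 0.0323, exact permutation p = 0.026). This call was fragile: it was lost in 8 of the 12 fits that left out a liver, among them that without Exercise replicate 1, with adjusted p between 0.00214 and 0.138 over all alternatives. Without Sedentary replicate 5 the log2 fold change was 1.15.

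Sedentary replicate 5 was the highest resting liver for Spry4, Dusp6 and Dusp16 alike. It was also the highest resting liver for 3 of the 19 ERK-responsive transcripts tested, and for 21.2% of all genes. Exercise replicate 5, the lowest exercised liver for Spry4 and Dusp16, was the lowest for 3 of those 19 transcripts and for 12.6% of all genes. These shares were near those over all genes.

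**Figure D2:**
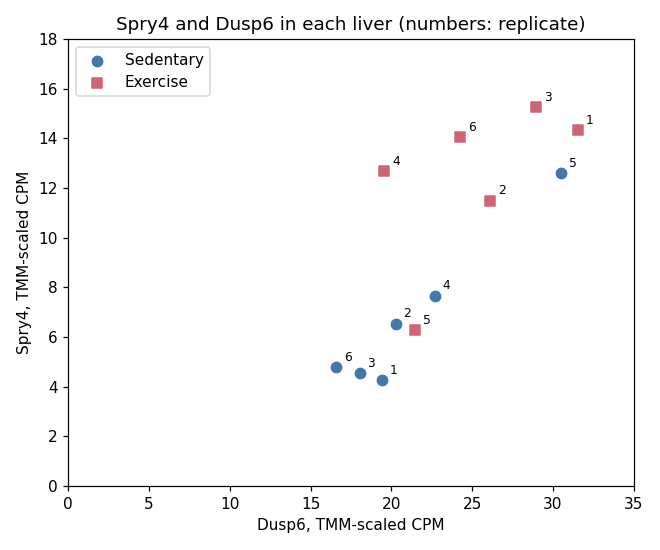
Spry4 against Dusp6, both in CPM on axes from 0, in each of the 12 livers, numbered by replicate (circles, Sedentary; squares, Exercise). Sedentary replicate 5 lies at 30.5 CPM of Dusp6 and 12.6 CPM of Spry4 among the Exercise livers, and Exercise replicate 5 lies at 6.29 CPM of Spry4 among the Sedentary livers.

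Spry2 (gene ID 24064), another Sprouty brake, on chromosome 14 at 105891947 to 105896819, was as scarce as Dusp4. It lay between 0.43 and 0.816 CPM in Sedentary livers, with a median of 0.673 CPM, and between 0.606 and 1.10 CPM in Exercise livers, with a median of 0.864 CPM. The log2 fold change was 0.41 (SE 0.22, adjusted p = 0.14, exact permutation p = 0.0411). It had only 9 to 16 counts per Sedentary library.

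Spred1 (gene ID 114715), on chromosome 2 at 117121071 to 117182279, belongs to the family that brings the RAS brake neurofibromin to the membrane. It lay between 11.9 and 14.3 CPM in Sedentary livers, with a median of 13.3 CPM, and between 13.6 and 17.0 CPM in Exercise livers, with a median of 14.2 CPM. Its log2 fold change of 0.15 (SE 0.08, adjusted p = 0.109, exact permutation p = 0.0671) did not pass the test in any of the 12 fits that left out a liver.

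The order of levels per length showed where these brakes sit in liver. In Sedentary livers Mknk2 led at 31.4 ± 3.04 FPKM (SD, n = 6), followed by Dusp6 at 7.96 ± 1.59, Mknk1 at 6.23 ± 0.364 and Dusp16 at 5.60 ± 0.564 FPKM. The ranges of Dusp6 and Mknk1, and of Mknk1 and Dusp16, overlapped. Only the gap below Mknk2 and the gap below Dusp16 were therefore clear of the spread in this upper part. Liver by liver, Dusp6 was still above Mknk1 in 6 of 6 Sedentary livers. Next came Spred1, at 2.21 ± 0.167 FPKM, whose range of 1.95 to 2.44 FPKM fell within that of Spry4 (0.97 to 2.64 FPKM). The range of Spred1 lay above those of Dusp10 (up to 1.59 FPKM) and Dusp7 (up to 1.62 FPKM). Spry4 at 1.49 ± 0.641, Dusp10 at 1.37 ± 0.279 and Dusp7 at 1.31 ± 0.223 FPKM overlapped one another. Spry2 at 0.327 ± 0.0761 and Dusp4 at 0.318 ± 0.0880 FPKM could not be ordered.

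After exercise Mknk2 stood at 67.0 ± 3.80 FPKM and the next gene, Dusp6, at 8.90 ± 1.51 FPKM. Dusp16, at 7.01 ± 0.664 FPKM, was above Mknk1, at 6.44 ± 0.322 FPKM, in 5 of 6 Exercise livers, and in Sedentary livers Mknk1 was above Dusp16 in 3 of 6. Spry4, at 2.56 ± 0.631 FPKM, was above Spred1, at 2.28 ± 0.161 FPKM, in 5 of 6 Exercise livers, whereas Spred1 was above Spry4 in 5 of 6 Sedentary livers. Dusp10, at 0.793 ± 0.157 FPKM, lay below Dusp7, at 1.45 ± 0.282 FPKM, in every Exercise liver without overlap of their ranges.

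**Figure D3:**
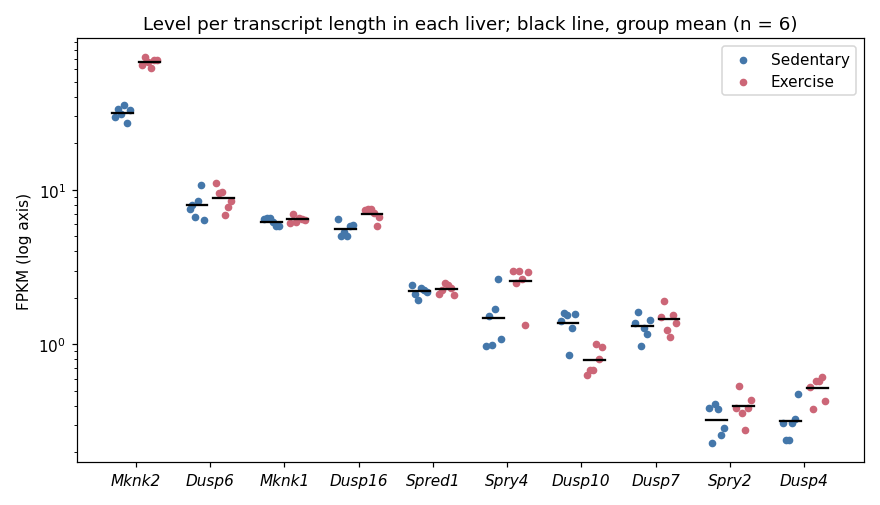
FPKM (log axis) of the 10 genes in each liver, ordered by the Sedentary mean, with a black line at each group mean (n = 6). Mknk2 lies above all others in both groups, and Dusp10 moves from the level of Dusp7 to below it.

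The wider families were read in full to see the genes that the choice of 10 left out. Of the 10 MAP kinase phosphatases in the table, 7 were tested, 4 of which rose, 1 fell and 2 did not pass, beside the 21.1% higher and 21.3% lower of all genes. Dusp1, an immediate early phosphatase for p38 and JNK, was the most abundant. It rose by 0.95 on the log2 scale (SE 0.28, adjusted p = 0.021, exact permutation p = 0.00433), from a range of 26.6 to 93.7 CPM to one of 83.9 to 153.3 CPM. Dusp8, which also acts on JNK and p38, rose by 1.05 (SE 0.30, adjusted p = 0.00916, exact permutation p = 0.013), from a range of 0.303 to 1.48 CPM to one of 1.12 to 2.26 CPM. Dusp2, Dusp5 and Dusp9 did not pass the low count filter, at no more than 0.442, 0.387 and 0.11 CPM in any liver.

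Per length, Dusp1 made up 64.1% ± 10.7 of the summed phosphatase FPKM in Sedentary and 75.3% ± 4.10 in Exercise livers (SD, n = 6), ranges that overlapped. The share of Dusp10 fell from 2.14 to 3.51% in Sedentary livers to 0.775 to 1.66% in Exercise livers, without overlap. The sum behind these shares was 50.6 ± 14.1 FPKM in Sedentary and 79.7 ± 12.5 FPKM in Exercise livers. The share of Dusp10 depends on that sum, and the level of Dusp10 alone overlapped between the groups. The share of Dusp6 was 11.3 to 27.7% in Sedentary and 8.77 to 14.4% in Exercise livers, so it stayed below the share of Dusp1 in both groups.

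Of the 7 Sprouty and SPRED genes, 6 were tested, 2 rose and 0 fell under edgeR (0 also at an unadjusted p under 0.05 and under DESeq2). Over all genes 21.1% rose and 21.3% fell, so with 6 genes these counts are read as nothing particular to the family. Spred2 rose by 0.37 on the log2 scale (SE 0.08, adjusted p = 0.00177, exact permutation p = 0.00433), with a range of 8.79 to 11.7 CPM in Sedentary and 11.5 to 14.7 CPM in Exercise livers. The other rise was that of Spry4. Spry1 had a log2 fold change of 0.12 (SE 0.10, adjusted p = 0.357) and Spred3 one of -0.48 (SE 0.25, adjusted p = 0.136), which became -0.70 (adjusted p = 0.0302) without Exercise replicate 3, while Spry3 reached no more than 0.1 CPM in any liver and was not tested.

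**Figure D4:**
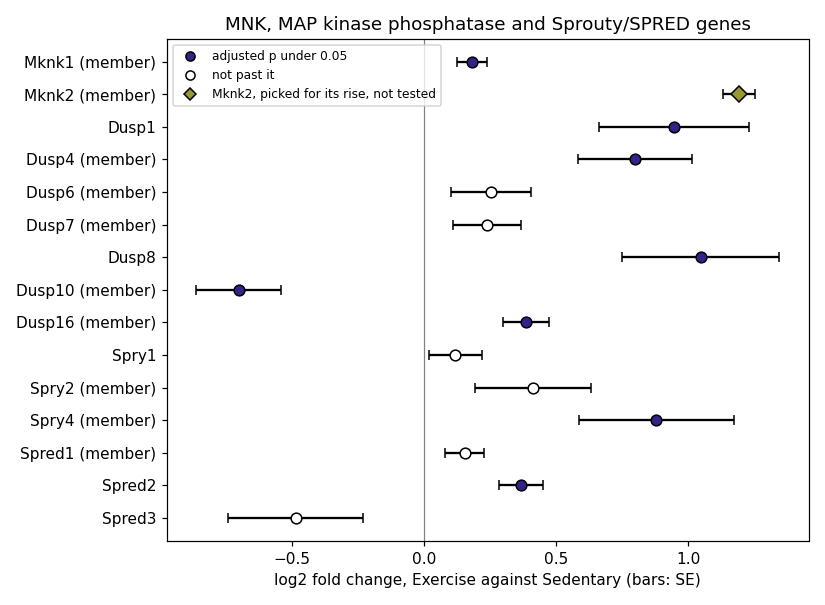
Log2 fold change of Exercise against Sedentary (horizontal axis, bars are SE) for all tested genes of the 3 families. Dusp1, Dusp8, Dusp4 and Spry4 lie between 0.80 and 1.05, Dusp10 lies at -0.70, and Mknk2, drawn as a diamond, lies at 1.19 without a test.

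Around the 10 genes, 139 other genes of the pathway lists were tested, and 65 passed, a share of 46.8% beside the 42.4% of all genes. Of the 65, 42 were higher and 23 lower in Exercise livers. The counts by list below stand beside 21.1% higher and 21.3% lower over all genes. The list of 18 MNK partners and cap-binding translation factors was split, with 5 higher and 3 lower. Eif4b, a cofactor of the helicase, rose by 0.31 on the log2 scale (SE 0.05, adjusted p = 0.000195), and the helicase Eif4a2 by 0.28. The helicase paralog Eif4a1 fell, with a log2 fold change of -0.28 (SE 0.05, adjusted p = 0.000388), as did the MNK substrate Eif4e and Eif4h. Eif4ebp2, which sequesters eIF4E, rose by 0.26, a call lost on both FPKM scales (limma adjusted p up to 0.0531).

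Of the other kinases that MAP kinases activate, 1 of 8 tested rose and 3 fell. This count of 4 rested on single livers, being 1 without Sedentary replicate 3, Sedentary replicate 6 or Exercise replicate 1, and 2 without Sedentary replicate 2 or Exercise replicate 3, 5 or 6. Rps6ka1, the ERK-activated kinase RSK1, changed by -0.71 on the log2 scale (SE 0.10, adjusted p = 3.27e-05), from 9.45 to 12.7 CPM at rest to 5.69 to 8.20 CPM after the bout, without overlap. Mapkapk3 and Rps6ka4 were the others that fell and Mapkapk5 rose by 0.14, but leaving out a liver lost these calls in 7, 9 and 10 of 12 fits, with that without Exercise replicate 1 among them for each.

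The other brakes on RAS and ERK held 6 genes that rose and 0 that fell among 15 tested with edgeR. Over all genes 21.1% rose and 21.3% fell. At an unadjusted p under 0.05, 1 fell, under DESeq2 0 and under limma on log2(FPKM + 0.1) 1. Errfi1, an inhibitor of the EGF receptor, rose by 0.56 on the log2 scale (SE 0.07, adjusted p = 1.1e-05), from 881 to 1211 CPM at rest to 1482 to 1679 CPM after exercise. Rasa2, a RAS GTPase activator, rose by 0.78, Cblb, a ubiquitin ligase that marks receptors for destruction, by 0.67, and Nf1, the gene of neurofibromin, by 0.29, the last call being lost on log2(FPKM + 0.1) (limma adjusted p = 0.0542). The groups did not overlap in 5 of the 15, among them these 4, which were chosen by their small p, beside 22.3% of all genes.

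In the core cascade of 25 tested genes, 7 rose and 5 fell. Braf rose by 0.38 on the log2 scale (SE 0.07, adjusted p = 0.000189). Shoc2, a scaffold that helps to activate RAF, rose by 0.34, and Lamtor1, which anchors a MEK scaffold to lysosomes, had a log2 fold change of -0.41. The median over the list was 0.05.

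The list of ERK-responsive transcripts and the factors that read ERK held the highest rise, with 9 of 19 tested higher and 2, Ccnd1 and Myc, lower. Of the 9, 3 were the factors Elk1, Elk4 and Srf. Maff, a small basic leucine zipper factor, rose by 2.27 on the log2 scale (SE 0.23, adjusted p = 3.38e-06) and Fos, an AP-1 subunit, by 2.22 (SE 0.29, adjusted p = 1.32e-05). Junb rose by 1.52, from 6.16 to 10.1 CPM at rest to 17.1 to 29.2 CPM after exercise, and Fosl2 by 0.67. Fos stayed scarce, at no more than 2.14 CPM.

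In the JNK and p38 cascades, 6 of 21 tested genes rose and 3 fell. Dusp10 and Dusp16 act on the JNK and p38 kinases themselves, not on the kinases upstream. Of the JNK and p38 kinases tested, only Mapk9 passed, with a log2 fold change of -0.17. Map3k5, the stress-activated kinase ASK1, rose by 1.42 on the log2 scale (SE 0.08, adjusted p = 1.79e-09), from 15.6 to 23.0 CPM to 47.7 to 55.5 CPM. Its relative Map3k6 rose by 1.66, Map3k2 by 0.57, and Map3k4 had a log2 fold change of -0.46.

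Upstream of the relay, 4 of 16 tested receptor tyrosine kinases rose and 5 fell. Erbb3 rose by 0.74 on the log2 scale (SE 0.11, adjusted p = 9.93e-05) and Flt1, a VEGF receptor of endothelial cells, by 0.66. The FGF receptors Fgfr2 and Fgfr3 had log2 fold changes of -0.88 and -0.70. Of 12 growth factor ligands tested, Hgf rose, and Fgf21 and Vegfa fell, a count that was 5 without Sedentary replicate 5 or without Exercise replicate 2. The call of Hgf was lost in 6 of 12 fits that left out a liver, with library size alone and on both FPKM scales (adjusted p up to 0.0851). The log2 fold change of Fgf21, a hormone of the fasted liver, was -1.88 (SE 0.31, adjusted p = 0.000118), from 0.600 to 1.43 CPM at rest to 0.164 to 0.522 CPM after exercise.

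**Figure D5:**
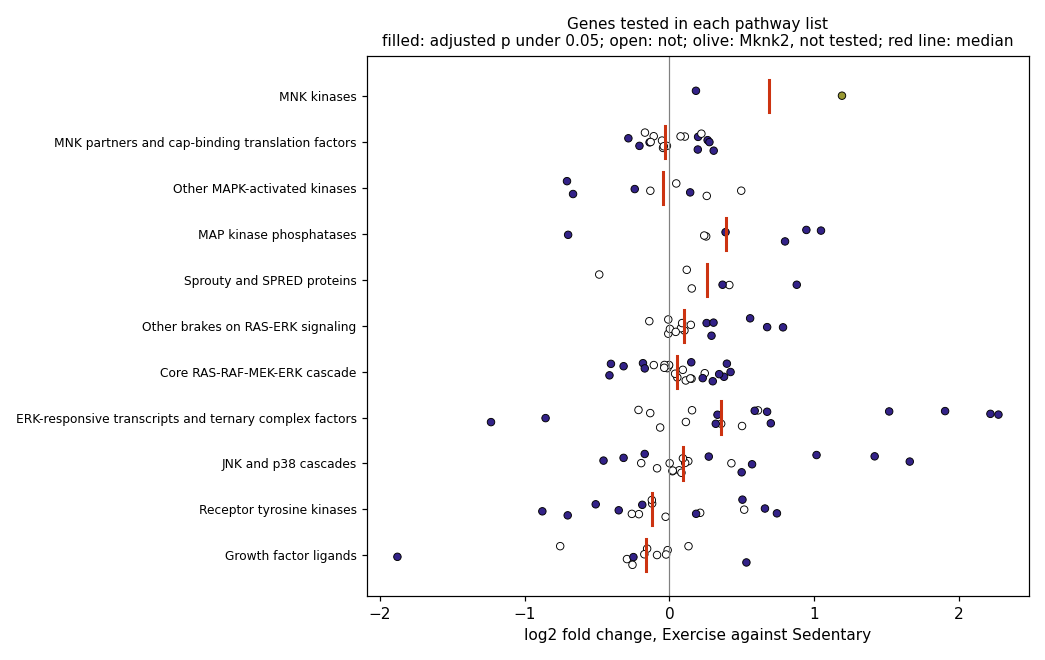
Log2 fold change of every tested gene in the 11 pathway lists, with filled points for an adjusted p under 0.05, a red line at each list's median and Mknk2 in olive. The widest spread is in the ERK-responsive transcripts, from -1.23 to 2.27.

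The 5 genes whose profile over the 12 libraries lay closest to that of Mknk2, out of 7091 that averaged 10 CPM or more, were Tnfrsf1b, Usp2, Coq10b, Mpzl2 and Plin5. Likeness was the root mean square difference of log2 CPM, each gene centred on its Sedentary mean, and was 0.117 for Tnfrsf1b, a TNF receptor, 0.118 for the deubiquitinase Usp2 and 0.147 for the lipid droplet protein Plin5. Their log2 fold changes lay between 1.09 and 1.25, beside 1.19 for Mknk2, a closeness that follows from how they were picked. None of the 5 belonged to the pathway lists.

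The ratio of count to FPKM gives the effective transcript length in each library, which shifts when the mix of isoforms shifts. For Mknk2 it stayed between 3353 and 3358 bases and for Dusp6 between 2746 and 2750 bases in all 12 livers, too constant to test, so no shift between isoforms of unequal length was measurable. Mknk1, Dusp16 and Spred1 were tested with limma and 0 passed, also at an unadjusted p under 0.05, with log2 shifts of 0.04 (SE 0.02, adjusted p = 0.456), -0.03 (SE 0.02, adjusted p = 0.692) and 0.01 (SE 0.01, adjusted p = 0.754), where 3.56% of 3708 genes did. The other 5 genes were below 1 FPKM in some library and were not tested.

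Some markers of other liver cells also differed between the groups, and their part in the results above was not tested. Of the 7 sinusoidal endothelial markers, Stab1, Pecam1 and Lyve1 rose and Kdr fell, with a summed level of 138.8 to 185.0 CPM in Sedentary and 164.6 to 244.2 CPM in Exercise livers. Of 8 stellate cell and fibroblast markers, Lrat and Des fell, and the sum was 275.1 to 373.8 and 259.5 to 400.9 CPM. None of 8 Kupffer cell and macrophage markers (68.8 to 118.1 and 80.1 to 124.8 CPM) and none of 5 cholangiocyte markers passed the edgeR test, with 0 also at an unadjusted p under 0.05 and under DESeq2. The 10 striated muscle markers summed to 9.17 to 20.9 CPM in Sedentary and 0.290 to 10.3 CPM in Exercise livers, with all 4 that were tested lower and Myl2, Myl3 and Mb at or near 0 throughout.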

How the data were processed

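Per the labels, total RNA of 12 mouse livers was made into mRNA libraries. The authors deposited a table of estimated counts, unscaled between libraries (31.3% not whole), and of FPKM values, scaled for length and depth. The submitters' processing notes name Bowtie2 2.3.4.3, RSEM 1.3.1 and mm10 without roles. Strand is not given in the sources used here. No library pair among 66 was identical. The study names 6 mice per group, and within groups the chi-square per gene between libraries was 7.53 or more, above sampling noise.

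Counts were rounded and tested in R 4.3.3 with edgeR 4.0.16 (TMM, filterByExpr with minimum count 10, quasi-likelihood, Benjamini-Hochberg adjustment over 12344 genes, threshold 0.05), with group as the only term. Single genes had a two-sided exact permutation test of log2(CPM + 0.5) over the libraries, and the permutation p-values are unadjusted. Effective length (count over FPKM, at least 1 FPKM, SD of log2 length at least 0.01) was tested with limma 3.58.1. FPKM alternatives used pseudocounts of 0.1 and 1. The other alternatives were RLE, upper quartile and library size scaling, other filters, DESeq2 1.42.0, limma-voom, stricter thresholds, the replicate number as a block and leaving out each liver. The rest was done in Python 3.11.15 (scipy 1.17.1, pandas 2.3.3). The tests were tried on simulated data in which only a small part of the genes changed. For edgeR that setting differs from these data, where 42.4% of genes passed. The depth makes counting error small except for genes with few counts.

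The members, lists and markers were chosen with earlier results of these data known. Named genes are the 10 members, the rest of the 3 families, up to 4 genes of smallest p from each other list, and the 5 genes most like Mknk2. Sets of 5 or fewer called genes were named after their values were seen. A gene of the core cascade that falls under this rule is not reported here.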

Additional observations from a re-analysis of the deposited data

Results flagged for a closer look

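A liver lay far from the other 5 of its group (by Dixon's ratio of gap to range) in 6 of 104 gene and group pairs checked, where chance gives about 1 in 20. Among the 10 genes, Mknk1 was highest in Exercise replicate 2, at 19.7 CPM with the next liver at 18.5 CPM, and Dusp10 was lowest in Sedentary replicate 4, at 2.27 CPM with the next at 3.53 CPM. Elsewhere, Eif4ebp2 was lowest in Sedentary replicate 2, at 151.5 CPM with the next at 176.7 CPM. Map3k6 was highest in Exercise replicate 6, at 9.94 CPM with the next at 8.21 CPM. In Exercise replicate 3, Map3k2 was highest at 21.6 CPM, with the next liver at 17.8 CPM, and Fgf21 was highest at 0.522 CPM, with the next at 0.276 CPM. Genes with a mean under 0.5 CPM were left out of this check.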

How the results depend on the processing

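No named log2 fold change of the 10 genes changed sign under any alternative. Leaving out each liver in turn gave 4739 to 5222 changed genes (2366 to 2670 higher, 2290 to 2571 lower), 4 to 6 of the 9 members, 55 to 68 pathway genes and 82 to 126 genes with a changed effective length (lowest without Sedentary replicate 3, with 87 without Exercise replicate 6). An adjusted p of 0.01 left 3 members. A change of at least 2-fold left 486 genes (290 higher, 196 lower), 0 members (edgeR) and 10 pathway genes. limma on log2(FPKM + 0.1) and on log2(FPKM + 1) gave 1702 and 1714 higher genes, with the median of all genes at -0.09 and -0.07, and library size alone put it at -0.10. The log2 fold change of Mknk2 was 1.09 with library size alone and 1.07 on log2(FPKM + 1). Spry4 had an adjusted p of 0.0519 (edgeR) with no filter beyond 1 count. Dusp4 and Spry2 had the fewest counts of the members, 9 to 28 per library.

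The replicate numbers did not pair the livers: deviations of same-numbered livers correlated between -0.10 and 0.16, and 1 of 6 pairs was best matched in both directions. With the replicate number as a block, edgeR called 4956 genes, 4802 of them called without it, and 4 members, Spry4 having an adjusted p of 0.138, and 81 genes changed in effective length.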
